A study of Mus musculus with 9 samples.

Results

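The complement genes followed here were *C1qa*, *C1qb*, *C1qc*, *C4b*, *C3*, *Cfb*, *Cfp*, *C3ar1* and *C5ar1*, 9 of the 34638 genes in the deposited table. They were picked by symbol as components of the cascade and receptors of its fragments, with earlier results of these data known. Their mRNA was measured by RNA-seq in lungs of 9 wild-type C57BL/6 mice, 3 in each of 3 groups. Control mice received PBS by the intratracheal route. IL-33 mice received 0.5 µg of recombinant mouse IL-33, an epithelial alarmin of type 2 airway inflammation, by the same route on days 0, 1, 2 and 3. Mice of the IL-33+LM8 group had the same IL-33 dosing, preceded by intraperitoneal LM8 at 10 mg/kg. LM8 is an inhibitor of MyD88, the adaptor through which the IL-33 receptor and most Toll-like receptors signal. The control and IL-33 mice were female and 6 to 8 weeks old, the volume instilled was 25 µL, and their lungs were taken on day 4. Sex, age and day of harvest of the IL-33+LM8 mice are not given in the sources used here, and no group with LM8 alone was analysed here. The questions were which complement genes changed with IL-33 and which of them differed when LM8 was also given.

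Complement is a proteolytic cascade of plasma and tissue fluids that tags particles for uptake and releases small peptides that attract and activate leukocytes. The classical route starts when C1q, a hexamer built of chains encoded by *C1qa*, *C1qb* and *C1qc*, binds a target, after which C4 is cleaved. All routes converge on C3, and the alternative route amplifies C3 cleavage with factor B (*Cfb*) and with properdin (*Cfp*), which stabilises the C3 convertase. The peptides C3a and C5a act on the G protein-coupled receptors encoded by *C3ar1* and *C5ar1*. C1q is made mainly by tissue macrophages and dendritic cells, properdin by myeloid cells, C3 and factor B by liver and also by epithelium and macrophages, and C5ar1 is abundant on neutrophils and macrophages.

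The deposited table gave raw read counts and FPKM, the count divided by gene length and library size, for each mouse. Between 53877663 and 90607218 reads per mouse were counted on genes. Replicate libraries differed from each other by 21.9 times the sampling variance or more, and each was kept as its own replicate. Lung identity was checked with *Sftpc*, *Sftpb*, *Scgb1a1*, *Ager* and *Cldn5*, whose summed FPKM was between 14424 and 35888, with none at 0. In whole lung, more cells of a type and more mRNA per cell cannot be told apart.

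Liver RNA was present in some libraries. *Alb*, which encodes albumin, was between 139 and 267 FPKM in 6 libraries, 2 of each group, and between 0 and 0.627 FPKM in control replicate 3, IL-33 replicate 1 and IL-33+LM8 replicate 3. The number of liver libraries was thus the same in each group, but the amount of liver RNA was not. *Alb* in these libraries was 139 and 157 FPKM in control, 153 and 209 in IL-33 and 238 and 267 in IL-33+LM8 mice. The summed FPKM of 18 liver genes was 358 to 622 in the 6 libraries and 5.72 to 9.45 in the 3 others. Among 50 other complement genes, 10 were higher in every library with liver RNA than in every library without it, among them *Mbl2*, *Masp2*, *C8a*, *C8b*, *C8g*, *C9*, *C4bp*, *Vtn* and *Cpn2*. None of the 9 genes followed here behaved in that way over all libraries, and none was higher with liver RNA in all 3 groups. *C1qa* and *C1qb* were higher with it in 2 groups, and *C4b*, *Cfb*, *Cfp* and *C5ar1* in 1. *C1qc*, *Cfp* and *C3ar1* were lower with it in 1 group.

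**Figure D1:**
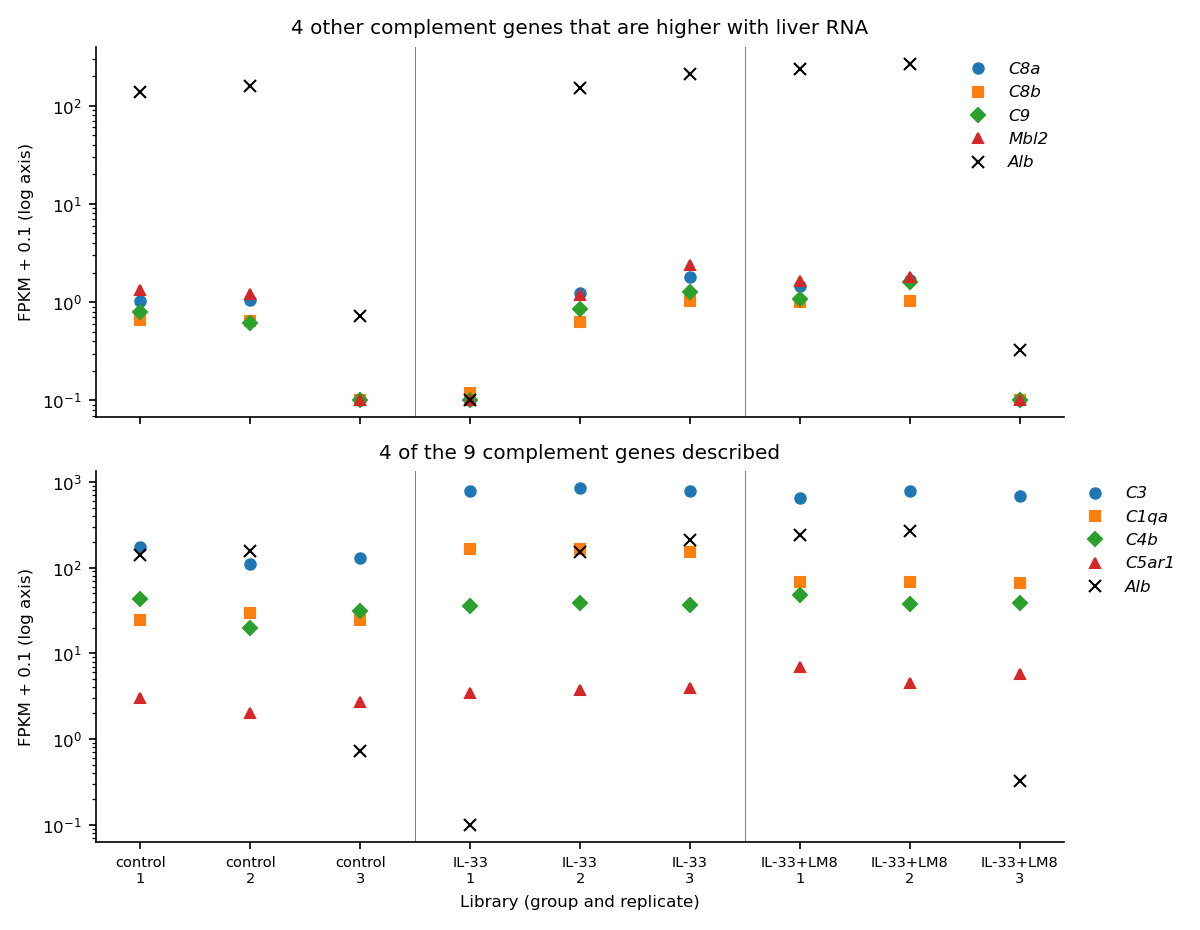
FPKM plus 0.1 on a log axis for each library, by group and replicate, of *Alb* and 4 other complement genes (upper panel) and of *Alb* and 4 of the 9 genes (lower panel). *C8a*, *C9* and *Mbl2* are at 0 in the 3 libraries with *Alb* under 1 FPKM, whereas *C3*, *C1qa*, *C4b* and *C5ar1* do not follow *Alb*.

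All 9 genes lie on minus strands by the table's own coordinates, which do not match GRCm38 although the submitters' processing notes name mm10, so they are given as deposited. The genes of the C1q chains lie side by side on chromosome 4, *C1qb* (ENSMUSG00000036905) from 136607440 to 136613498, *C1qc* (ENSMUSG00000036896) from 136617115 to 136620376 and *C1qa* (ENSMUSG00000036887) from 136623228 to 136626114. Chromosome 17 carries *C4b* (ENSMUSG00000073418) from 34947354 to 34962856, *Cfb* (ENSMUSG00000090231) from 35075350 to 35081494 and *C3* (ENSMUSG00000024164) from 57510970 to 57535136. *Cfp* (ENSMUSG00000001128) lies on chromosome X from 20791693 to 20797794. The receptor genes lie apart, *C3ar1* (ENSMUSG00000040552) on chromosome 6 from 122824097 to 122833120 and *C5ar1* (ENSMUSG00000049130) on chromosome 7 from 15980668 to 15993465. Of the 31-base words of *C4b* transcripts, 48.3% also occur in its neighbour *C4a*, and the sources used here do not say how reads on them were assigned, so *C4b* values are uncertain to that extent. *C4a* itself was counted between 155 and 708 times per mouse and *C4b* between 7299 and 20735 times. No 31-base word was shared between the C1q chains, between *C3* and *C4b*, or between the receptors.

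The 250 bases before the start of a gene were available from RefSeq (GRCm38.p6) for 6 of the 9 genes. They are shown for a pair of C1q chain genes, which moved together in these lungs, and for *C3*, which did not follow them with LM8. Each is printed 5′ to 3′ on the gene's strand, all in lower case since no stretch was singled out. The windows are chr4:136886201-136886450 for *C1qb*, chr4:136892915-136893164 for *C1qc* and chr17:57228137-57228386 for *C3*, all on the minus strand.
C1qb: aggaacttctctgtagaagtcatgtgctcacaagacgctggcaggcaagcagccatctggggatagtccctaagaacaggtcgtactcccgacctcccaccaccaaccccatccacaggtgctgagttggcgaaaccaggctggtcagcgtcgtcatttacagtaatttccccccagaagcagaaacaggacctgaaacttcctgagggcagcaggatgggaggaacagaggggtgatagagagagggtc
C1qc: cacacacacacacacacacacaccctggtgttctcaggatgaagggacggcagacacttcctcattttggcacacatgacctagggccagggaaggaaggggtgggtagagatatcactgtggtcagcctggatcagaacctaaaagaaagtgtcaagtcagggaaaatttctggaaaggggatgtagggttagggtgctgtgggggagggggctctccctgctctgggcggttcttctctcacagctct
C3: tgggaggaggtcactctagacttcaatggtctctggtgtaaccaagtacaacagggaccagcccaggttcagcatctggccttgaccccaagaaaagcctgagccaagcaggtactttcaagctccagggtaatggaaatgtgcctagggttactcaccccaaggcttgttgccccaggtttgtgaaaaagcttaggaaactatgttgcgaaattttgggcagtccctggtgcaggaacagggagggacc

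G and C made up 55.2% of the *C1qb* window, 54.0% of that of *C1qc* and 52.0% of that of *C3*, near the median of 52.4% over 32851 promoters of this length. The *C1qb* start given by RefSeq was not found in the first bases of the GENCODE M21 transcripts. No binding motifs are reported.

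In lungs given IL-33, 8 of the 9 genes were above the control lungs in every mouse, and 7 of them passed both thresholds, an adjusted p under 0.05 and a log2 fold change of at least 1 (quasi-likelihood test of edgeR, Benjamini-Hochberg adjustment over 16831 genes). The same call for higher expression was made for 10.8% of all genes tested, and 31.7% of genes had every IL-33 mouse above every control mouse. Since the 9 genes were chosen with earlier results known, such shares here and below are a description and not a test of the list. The C1q chains, *C3*, *Cfp* and *C3ar1* rose most and *Cfb* less. *C5ar1* passed the adjusted p alone, and *C4b* did not. Counting the adjusted p alone, 8 of the 9 were higher and none lower, against 27.4% of all genes higher. The median log2 fold change of the 9 genes was 2.58, and that of all genes was -0.01.

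With LM8 the genes parted. Against IL-33 mice, the C1q chains and *C3ar1* fell past both thresholds, 4 of the 9, where 3.93% of all genes did. *Cfp* fell with an adjusted p under 0.05 but a smaller change, which made 5 of the 9 lower by the adjusted p alone, against 13.9% of all genes, and *C5ar1* was the 1 gene higher by it, against 12.6%. *C3* and *Cfb* did not pass the test, with 95% intervals of -0.40 to 0.03 and -0.20 to 0.31 on the log2 scale. In 6 of the 9 every IL-33+LM8 mouse was below every IL-33 mouse, which held for 22.0% of all genes. The median log2 fold change of the 9 was -0.66 and that of all genes -0.01.

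Against control mice, IL-33+LM8 mice had 8 of the 9 genes higher past both thresholds, all except *C4b*, where 5.87% of all genes were. By the adjusted p alone 8 of the 9 were higher as well, against 16.3% of all genes, and the same 8 had no overlap between groups, against 23.4%. This comparison shares its control mice with IL-33 against control and its IL-33+LM8 mice with the comparison above, so the 3 comparisons are not independent. For any single gene, an exact two-sided permutation test of 3 mice against 3 cannot give a p under 0.1, which is the value for each gene and comparison without overlap.

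**Figure D2:**
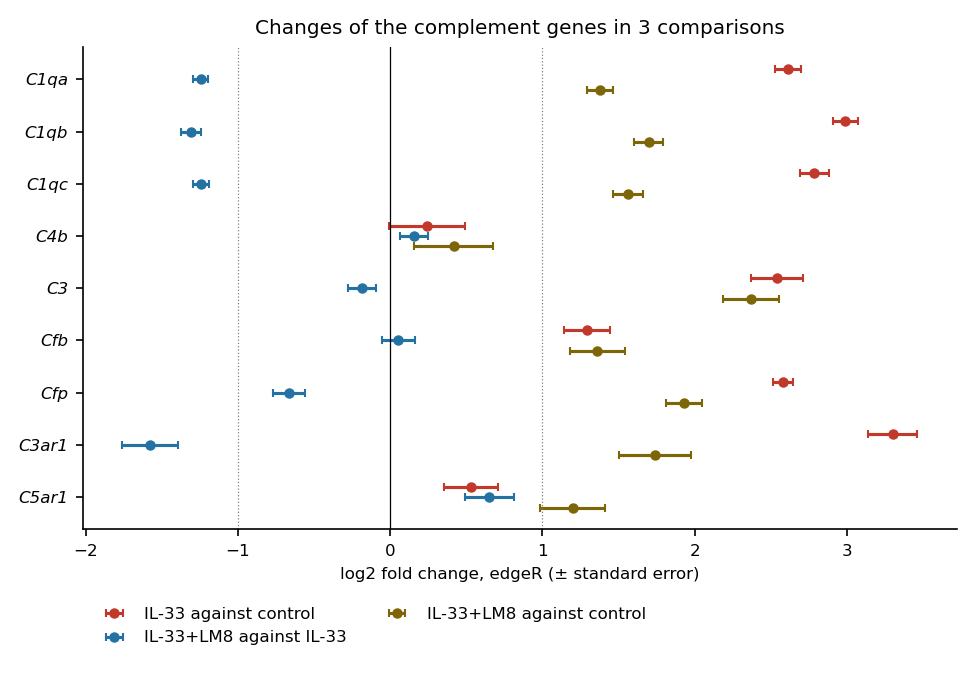
Log2 fold change from edgeR with its standard error (horizontal axis) of the 9 genes in the 3 comparisons, each comparison in its own colour, with dotted lines at -1 and 1. The C1q chains and *C3ar1* lie right of 1 against control and left of -1 for IL-33+LM8 against IL-33, *C3* and *Cfb* lie near 0 in that comparison, and *C4b* lies within 1 of 0 in each.

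*C1qa*, the A chain of C1q, was 24.6, 29.5 and 24.4 FPKM in control mice, 163, 166 and 151 FPKM in IL-33 mice, and 67.9, 67.9 and 66.4 FPKM in IL-33+LM8 mice. The IL-33 mice were highest, the IL-33+LM8 mice lay between, and no groups overlapped. The mean rose 6.11 ± 0.735-fold with IL-33 (ratio of mean FPKM with propagated SD, n = 3 mice a group), a log2 fold change of 2.61 (adjusted p = 1.4e-06, standard error 0.09). IL-33+LM8 mice had 0.421 ± 0.0212 times the IL-33 mean, a log2 fold change of -1.25 (adjusted p = 3.3e-05, standard error 0.05), and a log2 fold change of 1.38 above control (standard error 0.09, adjusted p = 8.6e-05).

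*C1qb*, the B chain, was 23.8, 25.1 and 21.05 FPKM in control mice, 185, 194 and 178 FPKM in IL-33 mice and 74.4, 80.0 and 70.2 FPKM in IL-33+LM8 mice. It had the largest rise of the chains, with a log2 fold change of 2.99 (adjusted p = 8.5e-07, standard error 0.08). With LM8 it was lower than with IL-33 alone by a log2 fold change of -1.31 (adjusted p = 5.0e-05, standard error 0.07). *C1qc*, the C chain, was 10.5, 13.4 and 11.3 FPKM in control mice, 84.8, 81.4 and 77.2 FPKM in IL-33 mice and 35.9, 33.4 and 33.6 FPKM in IL-33+LM8 mice. Again the groups stood apart, with IL-33+LM8 in the middle. Its log2 fold changes were 2.79 with IL-33 (standard error 0.09, adjusted p = 1.5e-06) and -1.24 for IL-33+LM8 against IL-33 (standard error 0.05, adjusted p = 3.3e-05). Both remained above control with LM8, with log2 fold changes of 1.70 for *C1qb* and 1.56 for *C1qc*.

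The proportions of the chains within a lung shifted less than their levels did. The ratio of *C1qb* to *C1qa* FPKM was 0.852 to 0.968 in control mice, 1.14 to 1.18 in IL-33 mice and 1.06 to 1.18 in IL-33+LM8 mice. It was higher in each IL-33 mouse than in each control mouse, by 0.38 on the log2 scale (standard error 0.06). Each IL-33+LM8 mouse was also above each control mouse, by 0.31 (standard error 0.07), and IL-33+LM8 mice overlapped IL-33 mice. The exact two-sided permutation p of each difference from control was 0.1, or 0.15 after Benjamini-Hochberg adjustment over 9 tests, of 3 ratios in 3 comparisons. The ratio of *C1qc* to *C1qa* was 0.428 to 0.462 in control mice, 0.491 to 0.521 in IL-33 mice and 0.493 to 0.529 in IL-33+LM8 mice.

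*C4b*, which encodes C4, was 43.2, 19.9 and 30.9 FPKM in control mice, 36.0, 39.0 and 36.7 FPKM in IL-33 mice and 48.0, 37.9 and 38.7 FPKM in IL-33+LM8 mice. Control mice were spread around the IL-33 values, and the groups overlapped in each comparison. The log2 fold change with IL-33 was 0.24, with a 95% interval from -0.34 to 0.83 (adjusted p = 0.44). It was 0.16 for IL-33+LM8 against IL-33 (95% interval -0.06 to 0.38, adjusted p = 0.26) and 0.42 for IL-33+LM8 against control (95% interval -0.20 to 1.03, adjusted p = 0.27). The intervals leave room for changes in either direction. The IL-33 value turned on control mice: without control replicate 2 it was -0.0011, and without control replicate 1 it was 0.56 with an adjusted p of 0.041, the only one of 18 alternatives under 0.05, in a range of 0.041 to 1.

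**Figure D3:**
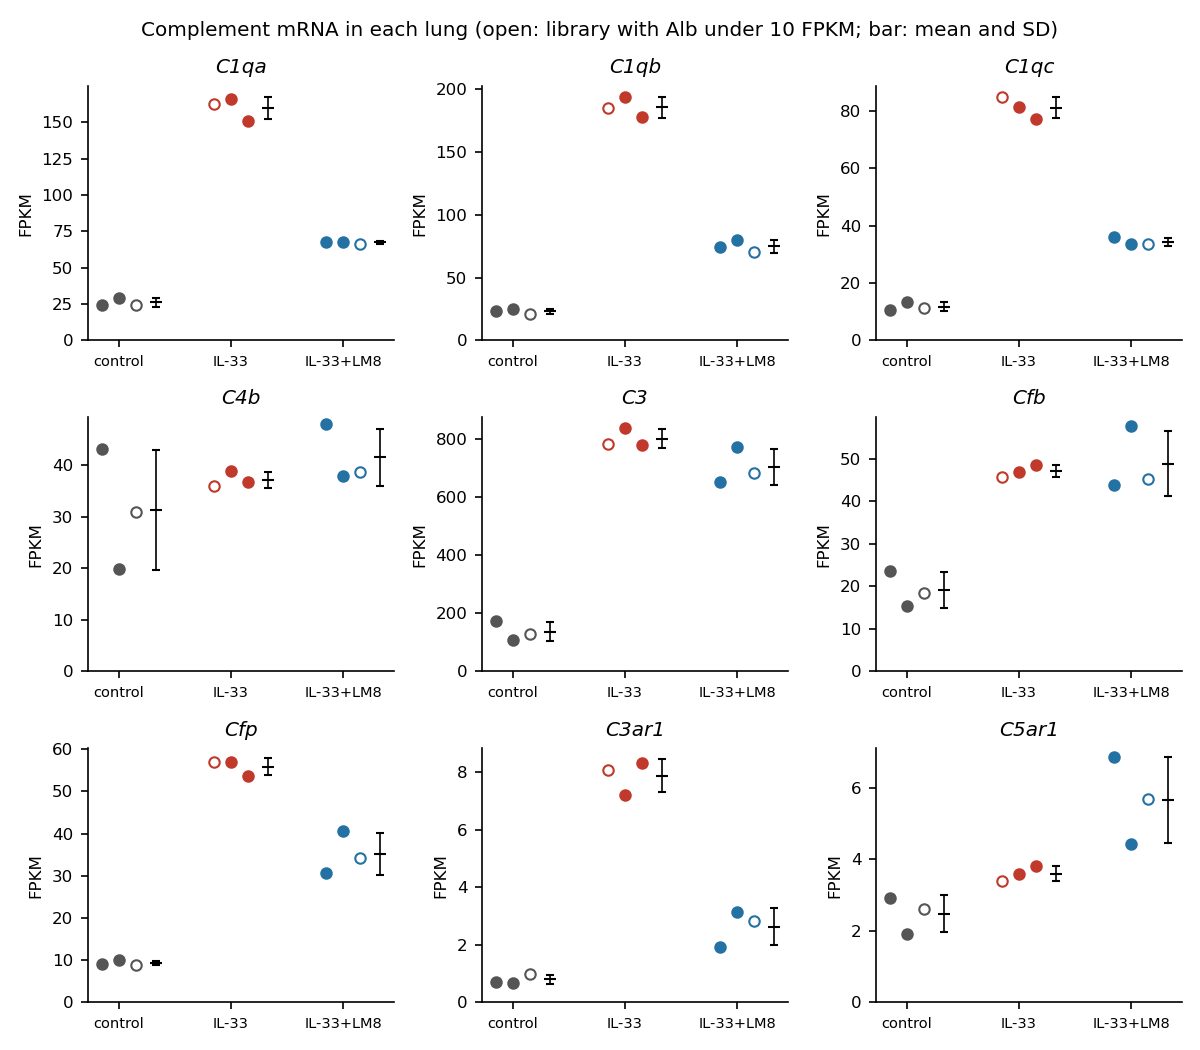
FPKM of the 9 genes in each mouse (points, 1 panel a gene, each vertical axis from 0), with the mean and SD of the 3 mice of a group beside them; open points are the libraries with *Alb* under 10 FPKM. *C1qa*, *C1qb*, *C1qc*, *Cfp* and *C3ar1* are highest with IL-33 and intermediate with IL-33+LM8, *C3* and *Cfb* are high in both groups, and *C5ar1* is highest with IL-33+LM8.

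*C3*, the central component, had the highest FPKM of the 9 genes in each group. It was 172, 109 and 130 FPKM in control mice, 785, 839 and 780 FPKM in IL-33 mice and 652, 773 and 684 FPKM in IL-33+LM8 mice. Both IL-33 groups were far above control, and the IL-33+LM8 mice were just below the IL-33 mice without overlap. The log2 fold change with IL-33 was 2.54 (standard error 0.17, adjusted p = 2.1e-05), and with IL-33+LM8 against control 2.37 (standard error 0.19, adjusted p = 0.0002). Between the IL-33 groups it was -0.19 (standard error 0.09, 95% interval -0.40 to 0.03, adjusted p = 0.18). The adjusted p of that difference was between 0.036 and 0.48 over 18 alternatives and under 0.05 in 1, without IL-33+LM8 replicate 2, where the log2 fold change was -0.27.

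*C1qa* and *C3* thus moved differently with LM8. The ratio of *C1qa* to *C3* FPKM was 0.143, 0.270 and 0.187 in control mice, 0.207, 0.197 and 0.194 in IL-33 mice and 0.104, 0.0878 and 0.0970 in IL-33+LM8 mice. The control and IL-33 mice overlapped, and every IL-33+LM8 mouse was lower than every other mouse. The log2 difference between the IL-33 groups was -1.05 (standard error 0.08, exact two-sided permutation p = 0.1, adjusted p = 0.15 over the 9 ratio tests, in which 0.1 is the smallest unadjusted p).

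**Figure D4:**
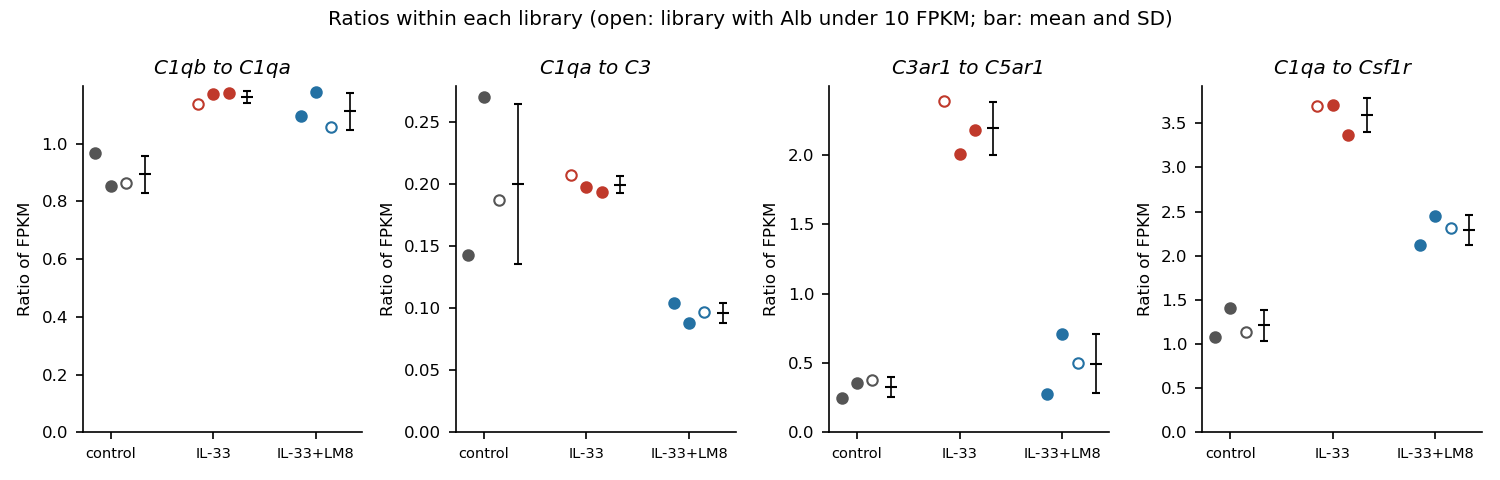
Ratios of FPKM within each library (points; vertical axes from 0) with the mean and SD of 3 mice a group; open points are the libraries with *Alb* under 10 FPKM. *C1qa* to *C3* is lowest with IL-33+LM8, *C3ar1* to *C5ar1* is above 2 with IL-33 alone and under 0.71 elsewhere, and *C1qa* to *Csf1r* is between the other groups with IL-33+LM8.

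*Cfb*, factor B, was 23.7, 15.3 and 18.5 FPKM in control mice, 45.7, 46.9 and 48.6 FPKM in IL-33 mice and 43.7, 57.6 and 45.1 FPKM in IL-33+LM8 mice. Both IL-33 groups were above control and overlapped each other. The rise with IL-33 was 2.46 ± 0.546-fold, with a log2 fold change of 1.29 (adjusted p = 0.00029, standard error 0.15), and that of IL-33+LM8 against control was 1.36 (standard error 0.18, adjusted p = 0.0018). The difference between the IL-33 groups was 0.05 (95% interval -0.20 to 0.31, adjusted p = 0.77) and -0.09 without IL-33+LM8 replicate 2. Since *C3* rose more than *Cfb*, the ratio of *C3* to *Cfb* FPKM went from 7.05 to 7.26 in control mice to 16.1 to 17.9 in IL-33 mice, and it was 13.4 to 15.2 in IL-33+LM8 mice. Control mice took the same order in *C3*, *C4b* and *Cfb*, with replicate 1 highest and replicate 2 lowest.

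*Cfp*, properdin, was 9.15, 9.98 and 8.88 FPKM in control mice, 57.1, 57.0 and 53.7 FPKM in IL-33 mice and 30.8, 40.7 and 34.2 FPKM in IL-33+LM8 mice. No groups overlapped, and the IL-33+LM8 mice lay between the others. The mean rose 5.99 ± 0.423-fold with IL-33, a log2 fold change of 2.58 (adjusted p = 6.9e-07, standard error 0.07). With LM8 it was lower than with IL-33 alone by a log2 fold change of -0.66 (adjusted p = 0.0033, standard error 0.10), short of the minimum of 1, and higher than control by 1.93 (standard error 0.12, adjusted p = 8.6e-05). Its adjusted p between the IL-33 groups was at most 0.044 over 18 alternatives.

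The receptors differed from each other. *C3ar1*, the receptor of C3a, was 0.719, 0.679 and 0.988 FPKM in control mice, 8.07, 7.22 and 8.31 FPKM in IL-33 mice and 1.91, 3.14 and 2.84 FPKM in IL-33+LM8 mice, from 189 to 327 counts in control mice and 1946 to 2375 in IL-33 mice. The IL-33 mice were highest, the control mice lowest, and no groups overlapped. In this fit it had the largest rise of the 9 genes, 9.89 ± 2.21-fold, with a log2 fold change of 3.30 (adjusted p = 5.6e-06, standard error 0.16). In limma on log2(FPKM + 1) its rise was 2.31 and that of *C1qb* 2.94, and in the libraries without liver RNA it was 8.17-fold and that of *C1qb* 8.80-fold, so the order of these genes depended on the setting. It fell with LM8, a log2 fold change of -1.58 (adjusted p = 0.0009, standard error 0.18), and was 1.74 above control there (standard error 0.24, adjusted p = 0.0020).

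*C5ar1*, the receptor of C5a, was 2.91, 1.92 and 2.61 FPKM in control mice, 3.38, 3.60 and 3.82 FPKM in IL-33 mice and 6.85, 4.44 and 5.67 FPKM in IL-33+LM8 mice. The order was control, IL-33, IL-33+LM8, with no overlap. The log2 fold change with IL-33 was 0.53 (standard error 0.18, adjusted p = 0.037). Between the IL-33 groups it was 0.65 higher with LM8 (standard error 0.16, adjusted p = 0.023), and IL-33+LM8 mice were 1.20 above control (standard error 0.21, adjusted p = 0.0062), past both thresholds. The first difference had an adjusted p of 0.012 to 0.10 over 17 alternatives and was not under 0.05 in 8 of them, among them the replicate block (0.058) and each that left out control replicate 2, control replicate 3 or any one IL-33 mouse. The second had an adjusted p of 0.0011 to 0.15 and was not under 0.05 in 7 of 17, among them the replicate block (0.053) and each that left out an IL-33 mouse, IL-33+LM8 replicate 1 or IL-33+LM8 replicate 3.

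The ratio of *C3ar1* to *C5ar1* FPKM was 0.247, 0.354 and 0.379 in control mice, 2.39, 2.01 and 2.18 in IL-33 mice and 0.279, 0.707 and 0.501 in IL-33+LM8 mice. Control and IL-33+LM8 mice overlapped, and the IL-33 mice were above all others. The log2 difference was 2.77 for IL-33 against control (standard error 0.21) and -2.24 for IL-33+LM8 against IL-33 (standard error 0.40), each with an exact two-sided permutation p of 0.1 and an adjusted p of 0.15 over the 9 ratio tests.

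The order of the levels, compared on FPKM, differed between the groups. In control lungs *C3* was followed by *C4b*, *C1qa*, *C1qb* and *Cfb*, whose neighbours in the order overlapped, then by *C1qc*, *Cfp*, *C5ar1* and *C3ar1*, each apart from the next. In IL-33 lungs the order was *C3*, *C1qb*, *C1qa*, *C1qc*, *Cfp*, *Cfb*, *C4b*, *C3ar1* and *C5ar1*, with no overlap between neighbours. In IL-33+LM8 lungs *C3*, *C1qb* and *C1qa* led, *Cfb*, *C4b*, *Cfp* and *C1qc* overlapped their neighbours, and *C5ar1* was above *C3ar1*.

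The comparisons were repeated with and without the libraries that held liver RNA. In the 1 library of each group without it, the IL-33 to control ratio of FPKM was 6.02 for *C3*, 6.67 for *C1qa*, 8.80 for *C1qb*, 7.51 for *C1qc*, 1.16 for *C4b*, 2.47 for *Cfb*, 6.43 for *Cfp*, 8.17 for *C3ar1* and 1.297 for *C5ar1*. The IL-33+LM8 to IL-33 ratio in these libraries was 0.872 for *C3*, 0.408 for *C1qa*, 0.379 for *C1qb*, 0.396 for *C1qc*, 1.08 for *C4b*, 0.987 for *Cfb*, 0.600 for *Cfp*, 0.352 for *C3ar1* and 1.68 for *C5ar1*. These ratios have no replicate check. In the 2 libraries a group with liver RNA, edgeR made the same calls, 7 higher, 4 lower and 8 higher in the 3 comparisons, but *C5ar1* had an adjusted p of 0.080 for IL-33 against control and 0.15 for IL-33+LM8 against IL-33.

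Markers of leukocytes also differed between the groups, some of them in other directions than these genes. *Ptprc*, carried by all leukocytes, was 7.21 to 8.03 FPKM in control, 19.9 to 21.4 in IL-33 and 13.6 to 17.3 in IL-33+LM8 mice. Of 12 tissue macrophage genes, 8 were called higher with IL-33 and 3 lower with LM8 against IL-33, and their summed FPKM was 410 to 466 in control, 682 to 765 in IL-33 and 465 to 487 in IL-33+LM8 mice. *Apoe* and *Lyve1* made up most of the control sum, and *Lyve1* had log2 fold changes of -0.64 with IL-33 and 0.92 for IL-33+LM8 against IL-33. By the adjusted p alone, *Mertk* (-0.33) and *Cx3cr1* (-0.64) were also lower with IL-33. *Cd163* (0.62) was higher by it for IL-33+LM8 against IL-33. Against control, 5 of the 12 were called higher in IL-33+LM8 mice and none lower. Of 7 neutrophil genes, all 7 were called higher with IL-33 and 5 higher again with LM8, with sums of 26.3 to 32.9, 188 to 211 and 871 to 1019 FPKM. Monocyte genes summed to 24.5 to 26.4, 82.2 to 90.2 and 70.9 to 78.6 FPKM. Of the 5, 3 were called higher with IL-33 and none lower. *F13a1* was -0.73 with IL-33 on the log2 scale and was the only 1 called for IL-33+LM8 against IL-33, higher at 2.39. By the adjusted p alone, *Ly6c2* (0.34) was higher there, and *Ccr2* (-0.79) and *Plac8* (-0.31) were lower. Eosinophil genes summed to 0.538 to 0.957, 32.3 to 36.9 and 6.59 to 7.25 FPKM. Alveolar macrophage genes summed to 307 to 357, 4147 to 4740 and 1892 to 2219 FPKM. Most of this was *Chil3* alone, with 193 to 224, 4059 to 4648 and 1795 to 2119 FPKM. With IL-33, 2 of the 7 were called higher, *Chil3* and *Siglecf*. Another 2, *Marco* (-1.63 on the log2 scale) and *Krt79* (-1.25), were called lower. For IL-33+LM8 against IL-33, 2 were called higher and 3 lower. Epithelial genes summed to 31163 to 33958, 13392 to 14584 and 25777 to 27965 FPKM, nearly all of it *Scgb1a1* and *Sftpc*, the 2 of 7 called lower with IL-33. The median log2 fold change of that list with IL-33 was -0.03, and *Epcam*, *Cdh1*, *Krt8*, *Krt18* and *Foxj1* lay between -0.13 and 0.27. Endothelial genes summed to 529 to 611, 343 to 377 and 529 to 547 FPKM. Of the 4, 2 were called lower with IL-33, *Cdh5* (-1.08) and *Kdr* (-1.24). In IL-33+LM8 mice these were still below control by the adjusted p alone, at -0.38 and -0.61. *Pecam1* (-0.08) and *Cldn5* (0.34) did not pass there. Fibroblast genes summed to 160.0 to 197, 409 to 467 and 159.8 to 207 FPKM. With IL-33 the collagen genes *Col1a1* (2.15) and *Col3a1* (2.04) of the fibroblast list were called higher on the log2 scale and *Pdgfra* (-1.12) lower, and the median of the list was -0.27. The part of these markers in the changes of the complement genes was not tested.

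Beside single macrophage markers, the C1q level did not keep one ratio. *C1qa* to *Csf1r*, the receptor of macrophage colony-stimulating factor, was 1.08 to 1.41 in control, 3.37 to 3.71 in IL-33 and 2.12 to 2.45 in IL-33+LM8 mice. *C1qa* to *Adgre1*, which encodes F4/80, was 4.39 to 4.94, 7.97 to 8.57 and 6.25 to 7.09, and *C1qa* to *Mertk* was 1.06 to 1.54, 9.10 to 9.49 and 4.09 to 4.57. Against *Cd68*, by contrast, the ratio was 1.10 to 1.75, 1.42 to 1.66 and 1.49 to 1.71, with overlap of all groups. *C1qa* to *Ms4a7* took another order, with 32.3 to 73.7 in control, 37.3 to 39.8 in IL-33 and 102 to 134 in IL-33+LM8 mice, so that control and IL-33 mice overlapped and IL-33+LM8 mice were highest. *C5ar1* to *Csf3r*, the receptor of granulocyte colony-stimulating factor on neutrophils, was 0.399 to 0.664 in control, 0.168 to 0.237 in IL-33 and 0.166 to 0.170 in IL-33+LM8 mice.

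Of the 50 other complement genes, 38 passed the filter on low values, and in IL-33 against control 8 of them were called higher, against 10.8% of all genes, and none lower. Without the minimum fold, 13 were higher and 6 lower, where 27.4% and 27.2% of all genes were. Their median log2 fold change was 0.34. The called genes with the largest changes were *Itgax* (3.06, standard error 0.10), *Itgb2* (2.23, standard error 0.05) and *Itgam* (2.16, standard error 0.13), which encode the chains of complement receptors CR3 and CR4, *Cfi* (2.84, standard error 0.39), the protease that inactivates C3b, *Fcna* (2.79, standard error 0.26), a ficolin of the lectin route, and *Cr2* (1.52, standard error 0.18), the B cell receptor of C3d. *C4a* and *C1qbp* completed the 8 and are named after their values were seen. Of the 31-base words of *C4a* transcripts, 43.3% also occur in *C4b*, so the call of *C4a* is uncertain as well. *C1qbp* was lower in the libraries with liver RNA than in the one without it in each group. By the adjusted p alone, *Masp1*, a protease of the lectin route, was 0.72 higher on the log2 scale, *C1ra*, a protease of C1, 0.59 and *Calr* 0.50. Among the genes lower by it were *Cd93* (-0.75), *C2*, which with C4 forms the classical convertase (-0.73), *Susd4* (-0.71) and *Mbl1*, a mannose-binding lectin (-0.63).

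In IL-33+LM8 against IL-33, 1 of the 38 was called, *Itgax*, lower at -1.28 (standard error 0.06), where 3.93% of all genes were called lower. By the adjusted p alone, 5 were lower and 3 higher, against 13.9% and 12.6% of all genes. Beside *Itgax* the lower genes were *Cr2* (-0.99), *Cfi* (-0.99), *Itgb2* (-0.78) and *Fcna* (-0.78), and the higher genes were *Cd93* (0.52), *C2* (0.37) and *C1s1* (0.18). *Itgam* had a log2 fold change of 0.16 and did not pass. The median of the 38 was 0.06.

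IL-33+LM8 against control gave 6 of the 38 called higher, against 5.87% of all genes, and none lower. The 6 were *Itgam* (2.34), *Fcna* (2.03), *Cfi* (1.86), *Itgax* (1.80), *Itgb2* (1.46) and *Cd55b* (1.25), the last of which encodes a form of decay-accelerating factor. By the adjusted p alone 11 were higher and 4 lower, against 16.3% and 13.4% of all genes. Those lower were *Susd4* (-0.60), *Cd46* (-0.41), *Clu* (-0.33) and *Cd93* (-0.21). *Cfi*, *Masp1*, *C1ra* and *Clu* were also higher in the libraries with liver RNA than in the one without it in each group.

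**Figure D5:**
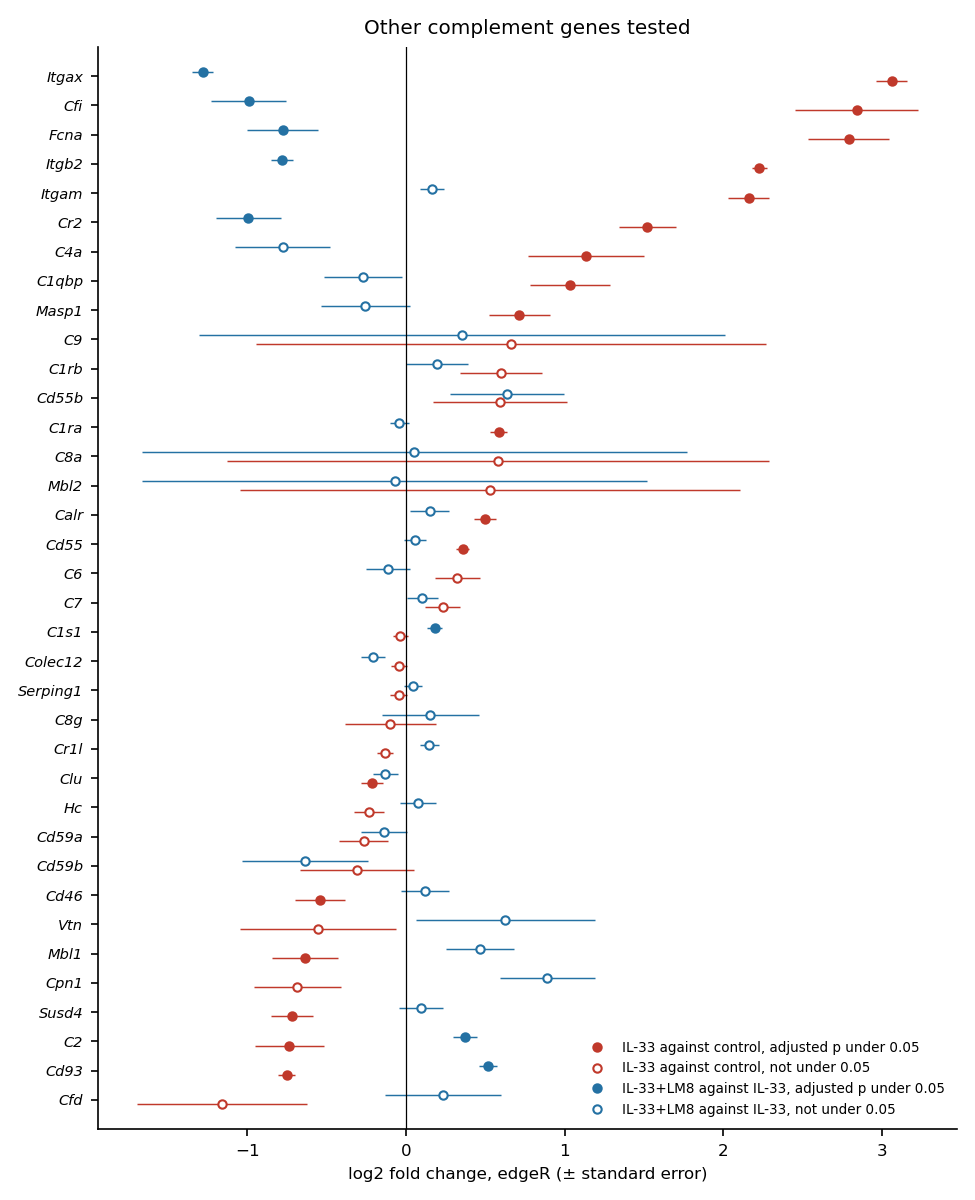
Log2 fold change from edgeR with its standard error (horizontal axis) of other complement genes tested, for IL-33 against control and IL-33+LM8 against IL-33; filled points have an adjusted p under 0.05. Integrin chain genes, *Cfi*, *Fcna* and *Cr2* lie highest with IL-33, and the wide errors of *C8a*, *C9* and *Mbl2* come with values at 0 in the 3 libraries without liver RNA.

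Across the 9 mice the C1q chains followed each other closely, with Pearson's r on log2(FPKM + 1) of 0.998 for *C1qa* with *C1qb* and 0.999 with *C1qc*. These r values describe mice of 3 groups, so they mostly carry the group means. *C3* was nearest to *Cfb* among the 9 genes (0.984), and *C3ar1* was closer to *C1qa* (0.976) than to *C5ar1* (0.308). Among 8574 genes with a mean of at least 5 FPKM, the genes most like *C1qa*, itself and *C1qc* aside, were *H2-DMa* and *Il10ra* (both 0.998), those most like *C1qb* were *P2ry6* and *Gm2a* (both 0.999), and those most like *C1qc* were *Il10ra* and *H2-DMa* (both 0.999) after *C1qa*. The nearest gene was *Prr13* for *C3* (0.998), *Gfpt1* for *Cfb* (0.989), *F10* for *Cfp* (0.999), *Olr1* for *C3ar1* (0.997) and *Myh11* for *C5ar1* (0.967). *C4b* had no gene above 0.939, the value of *Tmed10-ps*.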

How the data were processed

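RNA-seq counts and FPKM of 9 mouse lungs were taken from 1 table. The authors deposited raw counts per gene, without normalization, and FPKM per gene, which the authors scaled by gene length and library size; the submitters' processing notes name Bowtie 0.12.2, HISAT2 2.0, StringTie 1.3.0 and mm10, with no role given. Groups follow the labels. That libraries come from separate mice follows from the labels too. Tests on counts covered genes whose FPKM averaged 0.5 or more over the 9 mice and that had a count in the 6 compared (edgeR 4.0.16, R 4.3.3, quasi-likelihood, TMM), each comparison on its own mice, and a call needed an adjusted p (Benjamini-Hochberg) under 0.05 together with a log2 fold change of 1 or more in size. The standard error is the log2 fold change divided by the root of F. Single values and ratios were also tested by exact two-sided permutation; the 3 ratios tested were chosen after their values were seen. The fits were tested on simulated data. DESeq2 1.42.0, limma 3.58.1, other scalings, filters and left-out mice served as alternatives. The members and lists were chosen with earlier results of these data known. Other complement genes were named by size, up to 6 per direction among those called and up to 4 among those past the adjusted p alone; the 3 most alike genes by r, of which some are named. Only counting error is covered by totals between 53877663 and 90607218 reads a mouse. Some genes of the list of other complement genes are counted but not reported here by name.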

Additional observations from a re-analysis of the deposited data

How the results depend on the processing

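The number of the 9 complement genes called stayed within 1.5 times the reported number in all 54 alternatives over the 3 comparisons. Of 480 alternative log2 fold changes of these genes, 474 kept direction and side of the thresholds. *C4b* in IL-33 against control turned to -0.0011 without control replicate 2, in a range of -0.0011 to 0.56 with each mouse left out, and *Cfb* in IL-33+LM8 against IL-33 turned to -0.090 without IL-33+LM8 replicate 2, in a range of -0.090 to 0.13; the cause was not tested. *C5ar1* in IL-33+LM8 against control was 0.93 in limma on log2(FPKM + 1). The number of the other 50 complement genes called changed more. For IL-33 against control it was 8 as reported, 19 with no minimum fold change, 4 when the mean FPKM had to reach 5 and 5 in limma on log2(FPKM + 1). For IL-33+LM8 against IL-33 it was 1 as reported, 8 with no minimum, 2 in limma on log2(FPKM + 0.1), 2 with liver RNA as a factor and 1 to 3 with each mouse left out. For IL-33+LM8 against control it was 6 as reported, 15 with no minimum and 3 when the mean FPKM had to reach 5. The fits with liver RNA as a factor, on the libraries with liver RNA alone and on those without it were chosen after seeing the data. The factor held liver RNA as present or absent, not its amount. *Cfi* and *Cd55b* in IL-33+LM8 against control lost their calls without some single mice, control replicate 1 among them, where their adjusted p values were 0.052 and 0.053. Over all genes, IL-33 against control gave 1815 higher and 1050 lower calls, 4616 and 4577 with no minimum fold change.

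Deviations from the group means correlated by -0.42 to 0.67 between same-numbered mice and by -0.47 to 0.67 between others. These values followed liver RNA. Pairs of libraries that both lacked it had the highest r, 0.65 to 0.67, and every pair with it in only 1 library was below 0. The check therefore could not tell whether replicate numbers paired the mice. With a replicate block, 7, 4 and 8 of the 9 genes were called in the 3 comparisons at both thresholds, as without it, but the adjusted p of *C5ar1* rose to 0.058 for the IL-33 effect and to 0.053 between the IL-33 groups, and 2 other complement genes in IL-33+LM8 against IL-33. Leaving out libraries with *Alb* above 10 times the median removed none, so it gave no value of its own. With 3 mice a group, an exact test cannot pass 0.05, and depth is not the limit for the 9 genes, each counted at least 189 times in every mouse.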

Other observations

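*C5ar2*, the second receptor of C5a, was under the filter on low values. It was 0.534, 0.913 and 0.733 FPKM in the 3 libraries with almost no *Alb*, and 0.467, 0.510, 0, 0.594, 0.552 and 0 FPKM in the 6 libraries with liver RNA, so that each library without liver RNA was above those with it in its group. *Cfd*, factor D of the alternative route and a product of fat cells, varied within groups, with 15.5, 71.4 and 39.3 FPKM in control mice, 18.8, 11.0 and 26.5 FPKM in IL-33 mice and 14.1, 30.2 and 21.9 FPKM in IL-33+LM8 mice, and passed the test in no comparison (edgeR). Both genes were chosen after their values were seen.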
